A study of Mus musculus with 6 samples.

Results

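The core loop of the circadian clock was examined in the livers of 3 control mice and 3 acute ethanol-exposed mice. Its members were the 10 genes named Bmal1, Clock, Npas2, Per1, Per2, Per3, Cry1, Cry2, Nr1d1 and Nr1d2 in the deposited liver RNA-seq table, chosen by name out of 28880 genes. All 6 mice were wild-type C57BL/6J males aged 6 to 8 weeks, and the labels place them in batch 1. The ethanol-exposed mice were fasted for 12 h, given ethanol once by oral gavage (50% solution, 6 g/kg) and sampled 24 h later. The control mice received no ethanol. Whether they were fasted or gavaged with vehicle, and at what hour or under which light schedule either group was sampled, is not given in the sources used here. Fasting, gavage and the hour of sampling therefore cannot be told apart from ethanol in the comparisons that follow.

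The mammalian clock is a loop of transcription factors that runs in nearly every cell and takes about a day to complete. BMAL1 pairs with CLOCK, or with its relative NPAS2, and the pair binds E-box sequences to switch on the Per, Cry and Nr1d genes. PER and CRY proteins then gather and block the pair that made them, while the nuclear receptors REV-ERBα (Nr1d1) and REV-ERBβ (Nr1d2) compete with ROR receptors at ROR elements and hold down Bmal1, Clock, Npas2 and Cry1. Genes under E-boxes and genes under ROR elements thus peak at opposite hours. In the liver the loop times glucose, lipid and bile acid metabolism, and its phase follows feeding as well as light.

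These short elements can be seen in the promoters of several members. The 6 windows printed here run from 250 bases before to 50 bases after a transcription start in the RefSeq table (mouse build GRCm38.p6), 5′ to 3′ on the gene's strand. They are shown because each carries at least 1 E-box, E-prime box, D-box or ROR element half-site, as defined below and written in capitals.
Bmal1 promoter, chr7:113207261-113207560, plus strand: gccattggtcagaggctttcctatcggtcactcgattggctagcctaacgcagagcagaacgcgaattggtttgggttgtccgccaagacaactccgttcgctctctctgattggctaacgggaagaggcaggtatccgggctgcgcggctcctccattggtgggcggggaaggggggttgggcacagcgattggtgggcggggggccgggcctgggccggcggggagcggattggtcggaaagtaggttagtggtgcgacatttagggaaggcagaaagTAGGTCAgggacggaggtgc
Per1 promoter, chr11:69098699-69098998, plus strand: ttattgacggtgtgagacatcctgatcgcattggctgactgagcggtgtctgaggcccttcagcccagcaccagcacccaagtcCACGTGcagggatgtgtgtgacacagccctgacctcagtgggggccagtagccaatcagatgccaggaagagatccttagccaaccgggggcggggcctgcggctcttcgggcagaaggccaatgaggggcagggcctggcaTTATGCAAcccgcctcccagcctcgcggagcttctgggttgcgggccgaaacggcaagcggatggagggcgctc
Per3 promoter, chr4:151044616-151044915, minus strand: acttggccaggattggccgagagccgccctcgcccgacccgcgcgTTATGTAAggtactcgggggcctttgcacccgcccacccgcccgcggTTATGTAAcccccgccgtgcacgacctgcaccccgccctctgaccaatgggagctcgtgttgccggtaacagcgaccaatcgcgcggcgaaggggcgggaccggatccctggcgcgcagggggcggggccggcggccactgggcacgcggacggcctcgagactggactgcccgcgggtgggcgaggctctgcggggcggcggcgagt
Cry1 promoter, chr10:85185005-85185304, minus strand: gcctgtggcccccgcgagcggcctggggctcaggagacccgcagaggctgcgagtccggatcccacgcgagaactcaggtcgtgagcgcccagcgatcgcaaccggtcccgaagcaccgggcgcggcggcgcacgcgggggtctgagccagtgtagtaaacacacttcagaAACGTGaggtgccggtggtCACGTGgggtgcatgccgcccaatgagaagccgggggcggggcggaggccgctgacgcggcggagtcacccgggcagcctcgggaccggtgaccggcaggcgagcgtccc
Cry2 promoter, chr2:92434020-92434319, minus strand: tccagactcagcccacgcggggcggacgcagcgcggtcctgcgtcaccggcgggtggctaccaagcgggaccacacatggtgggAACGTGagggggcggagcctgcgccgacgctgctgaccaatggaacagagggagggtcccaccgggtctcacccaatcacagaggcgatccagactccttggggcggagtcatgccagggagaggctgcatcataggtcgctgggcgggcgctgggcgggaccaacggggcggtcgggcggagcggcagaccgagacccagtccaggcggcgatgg
Nr1d1 promoter, chr11:98775328-98775627, minus strand: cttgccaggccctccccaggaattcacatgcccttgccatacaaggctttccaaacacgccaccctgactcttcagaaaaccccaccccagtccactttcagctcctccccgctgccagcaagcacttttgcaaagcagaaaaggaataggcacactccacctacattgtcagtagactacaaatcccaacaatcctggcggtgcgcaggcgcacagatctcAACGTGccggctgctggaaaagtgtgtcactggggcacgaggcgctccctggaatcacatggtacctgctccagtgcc

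Motifs were searched on both strands, each kind on its own, so that matches of different kinds could overlap. They were the E-box CACGTG, the E-prime box CACGTT, which reads AACGTG on the other strand, the D-box TTATGNAA, the ROR element half-site TAGGTCA and the cAMP response half-site TGACGT. Of the 32851 windows in the table, 7.15% held the E-box, 4.68% the E-prime box, 3.38% the D-box, 2.61% the ROR half-site and 7.51% the cAMP response half-site. Windows were matched for 9 of the 10 members, 13 windows in all. Per2 had no match.

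The Per1 window printed above held an E-box 166 bases and a D-box (TTATGCAA) 24 bases before the start, and its other window held a cAMP response half-site. The Per3 window held 2 D-boxes (TTATGTAA), which D-box factors such as DBP, TEF and NFIL3 recognise. Cry1 held an E-box and an E-prime box, and Cry2 and Nr1d1 an E-prime box each. The ROR half-site was found in a Bmal1 window, 31 bases after the start. In the 3 Clock windows, the Npas2 window and the Nr1d2 window, none of these letters occurred. A match describes the letters only and is not evidence that a factor was bound in these livers.

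Between 60514417 and 74210869 reads per library were counted on genes. Expression is given as CPM, which is each count per its library's TMM-scaled total, a scaling that assumes most genes do not change between libraries. Ethanol-exposed mice had factors of 0.768 to 0.836 and control mice of 1.26 to 1.27. Over all genes tested, the median change was -0.04 on the log2 scale with these factors and -0.71 without, so each change is relative to the scaling. Whole liver was sequenced, so fewer cells of a type and less RNA per cell cannot be told apart. Expression of all 8 hepatocyte markers was measured, with summed levels of 125968 to 127595 CPM in ethanol-exposed and 69531 to 80925 CPM in control mice. The 4 cholangiocyte markers summed to 33.8 to 39.6 against 6.87 to 10.3 CPM and the neutrophil markers to 1.41 to 9.31 against 0.171 to 0.245 CPM. Summed Kupffer cell markers were 65.7 to 88.2 against 89.8 to 94.1 CPM, and no marker was at 0 in every library. Endothelial markers summed to 65.9 to 123.4 against 72.2 to 85.0 CPM, stellate cell markers to 115 to 142 against 100.2 to 115.9 CPM, T cell markers to 0 to 0.403 against 0.420 to 0.650 CPM and B cell markers to 0.556 to 1.01 against 0.862 to 1.30 CPM. A sum is set mostly by its most abundant markers. By the thresholds given below, 1 of 8 hepatocyte, 1 of 4 cholangiocyte, 2 of 4 neutrophil and 1 of 5 endothelial markers were upregulated. The downregulated markers were 1 of 5 endothelial, 1 of 5 stellate cell and 1 of 3 B cell markers. Only 2 of the 4 neutrophil and 1 of the 3 T cell markers were tested. The part of these markers in the clock results was not tested. Ethanol replicate 3 stood apart from ethanol replicates 1 and 2 on the second principal component, which held 16.7% of the variance.

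In ethanol-exposed livers, Per1, Per2 and Cry2 were upregulated DEGs and Nr1d1 was a downregulated DEG, while Bmal1 and Clock passed the test in the downward direction with smaller changes. A DEG needed a log2 fold change beyond 1 and, in the two-sided quasi-likelihood test of edgeR, a Benjamini-Hochberg adjusted p under 0.05 over the 16717 genes tested. All 10 members were tested. The 3 upregulated members stand beside 10.4% of all genes tested that were upregulated, the 1 downregulated member beside 13.8%, and the 4 DEGs beside 24.2%. By the adjusted p alone, 3 members were higher and 3 lower, against 21.5% of all genes in each direction and 43.0% in either. The groups did not overlap for 7 members, and 59.0% of all genes tested did not overlap either. The median log2 fold change of the members was -0.09, against -0.04 for all genes tested. The members are thus described by which genes moved and how, since their median lay near that of all genes. How separate the mice were is shown in the plot of members by library.

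**Figure D1:**
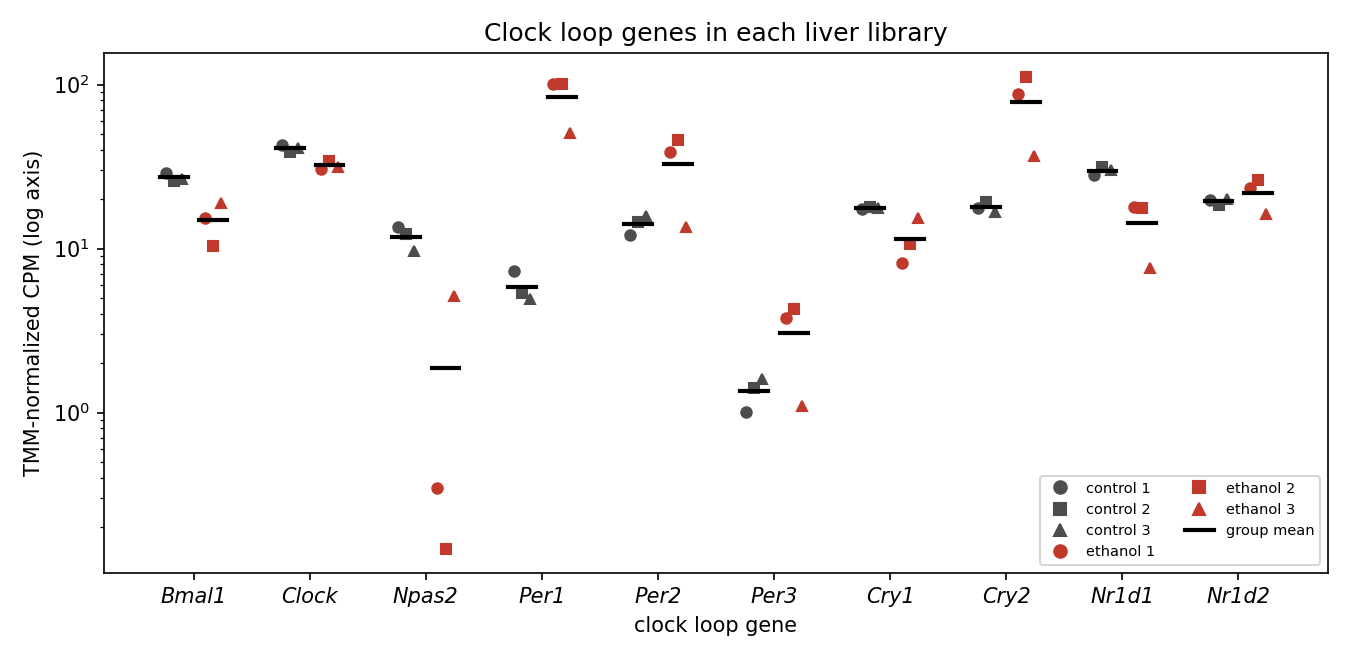
Level of each clock loop member in each of the 6 libraries (CPM after TMM scaling, log axis), with group means as bars. Per1 and Cry2 lie higher in all 3 ethanol-exposed mice, 5 members lie lower in all 3, and Per2, Per3 and Nr1d2 overlap between the groups.

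The positive limb, the activators of the loop, was lower in all 3 ethanol-exposed mice for each of its 3 genes. Bmal1 (ENSMUSG00000055116, chromosome 7, 112806672 to 112913333, plus strand, as all gene coordinates here in the table's own numbering), the partner without which the loop stops, was at 15.3, 10.4 and 18.9 CPM in ethanol replicates 1 to 3 and at 29.1, 25.7 and 26.7 CPM in control replicates 1 to 3. The highest ethanol-exposed mouse stood below the lowest control mouse. The log2 fold change of Bmal1 was -0.87 (edgeR, standard error [SE] 0.21, adjusted p = 0.0146), a 1.83-fold lower mean that passed the test on p but not the threshold on size. It passed both with library size alone, with limma on FPKM and without ethanol replicate 3, and no longer passed on p without control replicate 1 (adjusted p = 0.0562).

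Clock (ENSMUSG00000029238, chromosome 5, 76357715 to 76452639, minus strand), whose product is the usual partner of BMAL1, was at 30.6, 34.2 and 31.5 CPM in ethanol-exposed and 42.9, 38.7 and 41.1 CPM in control mice. It changed least among the members that passed the test, and its mice lay close together in both groups. The log2 fold change of Clock was -0.35 (edgeR, SE 0.10, adjusted p = 0.0273). It no longer passed the test on p with the trend with transcript length removed (-0.16, adjusted p = 0.195), with the replicate block (0.0875), without ethanol replicate 1 (0.0828) or without any 1 control replicate (0.0620 to 0.0941), and was a DEG with library size alone (-1.01, adjusted p = 0.000480). A pseudogene, Ube2n-ps1, lies within Clock on the same strand with 41 to 64 counts per library, few beside the reads of Clock.

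Npas2 (ENSMUSG00000026077, chromosome 1, 39232812 to 39402317, plus strand), which can stand in for CLOCK, was at 0.348, 0.147 and 5.11 CPM in ethanol-exposed and 13.5, 12.2 and 9.71 CPM in control mice. Ethanol replicates 1 and 2 were almost without Npas2 reads, and ethanol replicate 3 lay between them and the control mice. With this spread the log2 fold change of -2.67 (edgeR, SE 1.09, adjusted p = 0.0848) did not pass the test. Leaving out ethanol replicate 3 gave -5.57, which passed it, and Npas2 also passed with library size alone and with limma on FPKM.

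The Per genes encode the proteins that carry the delayed repression, and of the 3 Per1 differed most between the groups. Per1 (ENSMUSG00000020893, chromosome 11, 68986043 to 69000786, plus strand), which also answers quickly to cAMP and glucocorticoid signals, was at 100.6, 101.2 and 50.4 CPM in ethanol-exposed and 7.27, 5.37 and 4.89 CPM in control mice. Every ethanol-exposed mouse exceeded every control mouse by far. Its mean was 14.4-fold higher, a log2 fold change of 3.85 (edgeR, SE 0.32, adjusted p = 0.000243).

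Per2 (ENSMUSG00000055866, chromosome 1, 91343704 to 91387046, minus strand), a main scaffold of the repressor complex, was at 38.9, 45.8 and 13.5 CPM in ethanol-exposed and 12.1, 14.4 and 15.7 CPM in control mice. Ethanol replicates 1 and 2 were above all control mice, while ethanol replicate 3 lay within their range. The log2 fold change of Per2 was 1.22 (edgeR, SE 0.40, adjusted p = 0.0454). This call was lost with any single library other than ethanol replicate 3 left out, with upper quartile scaling (adjusted p = 0.0612) and with no filter on low counts (adjusted p = 0.0727). The replicate block ended it as well (1.07, adjusted p = 0.0997). The change itself was smaller, and not called, with library size alone (0.57, adjusted p = 0.281) and with limma on log2(FPKM + 1) (0.32, adjusted p = 0.449) or log2(FPKM + 0.1) (0.37, adjusted p = 0.499).

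Per3 (ENSMUSG00000028957, chromosome 4, 151088109 to 151129122, minus strand), a Per gene that the loop can run without, was at 3.75, 4.27 and 1.10 CPM in ethanol-exposed and 1.01, 1.42 and 1.60 CPM in control mice. The same mice were high as for Per2, and the groups overlapped. Its log2 fold change was 1.18 (edgeR, SE 0.50, adjusted p = 0.0926), and without ethanol replicate 3 it was 1.59 and a DEG.

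The Cry genes, which encode the main repressors of the CLOCK and BMAL1 pair, had log2 fold changes of opposite sign. Cry1 (ENSMUSG00000020038, chromosome 10, 84967564 to 85020928, minus strand) was at 8.13, 10.7 and 15.3 CPM in ethanol-exposed and 17.5, 17.9 and 17.7 CPM in control mice. All ethanol-exposed mice were lower, by amounts that varied from mouse to mouse, and the log2 fold change of -0.64 (edgeR, SE 0.22, adjusted p = 0.0523) did not pass the test. Cry1 lay close to the threshold on p, which it passed with median ratio factors (adjusted p = 0.0483), upper quartile scaling (0.0300) and DESeq2 (0.0193) and without ethanol replicate 3 (0.00118). It was a downregulated DEG with library size alone (-1.31) and with limma on either FPKM scale (-1.07 and -1.32). Cry2 (ENSMUSG00000068742, chromosome 2, 92233991 to 92264388, minus strand) was at 87.8, 111.8 and 36.9 CPM in ethanol-exposed and 17.8, 19.1 and 16.7 CPM in control mice. All 3 ethanol-exposed mice were above the control mice, replicate 3 the least. Its mean was 4.42-fold higher, a log2 fold change of 2.14 (edgeR, SE 0.37, adjusted p = 0.00379). An antisense gene, D930015M05Rik, lies within Cry2 with 20 to 63 counts per library, and whether counting used the strand is not given in the sources used here.

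The 2 REV-ERB genes, repressors of Bmal1 and usual targets of E-boxes, also differed from each other. Nr1d1 (ENSMUSG00000020889, chromosome 11, 98658758 to 98666159, minus strand) was at 18.0, 17.6 and 7.60 CPM in ethanol-exposed and 28.2, 31.3 and 30.2 CPM in control mice. All ethanol-exposed mice were lower, and here ethanol replicate 3 lay farthest from the control mice. The log2 fold change was -1.05 (edgeR, SE 0.30, adjusted p = 0.0279), close to the threshold on size, and the call was lost without ethanol replicate 3 or without any 1 control replicate. It was also lost with the trend with transcript length removed (-0.95). Nr1d2 (ENSMUSG00000021775, chromosome 14, 4230569 to 4265642, plus strand) was at 23.4, 26.1 and 16.1 CPM in ethanol-exposed and 19.8, 18.4 and 20.1 CPM in control mice. Its groups overlapped, and its log2 fold change of 0.17 (edgeR, SE 0.18, adjusted p = 0.475) changed sign with library size alone (-0.49). Without ethanol replicate 3 Nr1d2 passed on p as higher (0.36, adjusted p = 0.0156, edgeR). Among the 10 members, Per1 and Cry2 stayed DEGs in the same direction under every alternative run. Their log2 fold changes were smaller with library size alone (3.19 and 1.49) and with limma on log2(FPKM + 1) (2.39 and 1.13). Without ethanol replicate 3 they were larger (4.12 and 2.50).

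**Figure D2:**
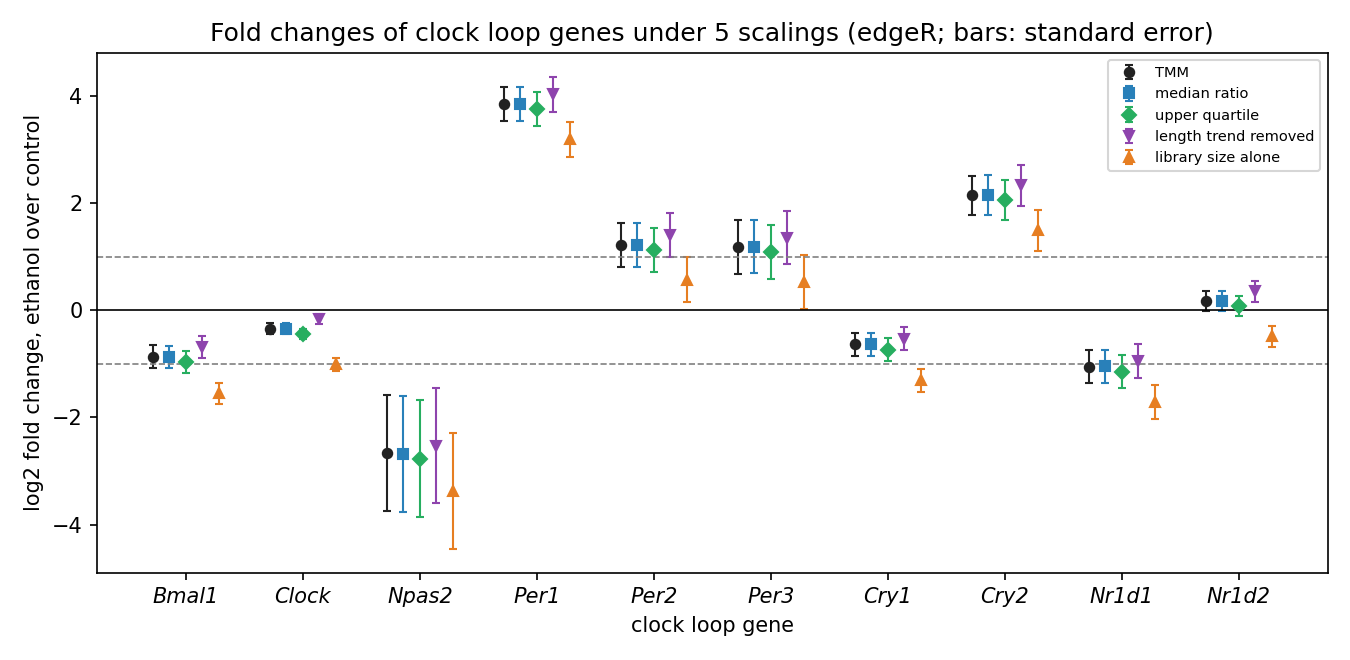
Log2 fold change of each member, ethanol-exposed against control mice, under 5 scalings (edgeR), with standard errors as bars and dashed lines at 1 and -1. Per1 (3.85 with TMM) and Cry2 (2.14) lie above 1 throughout, Npas2 (-2.67) has the widest error, and Nr1d2 (0.17) falls below 0 with library size alone.

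Ethanol replicate 3 was the lowest of the 3 ethanol-exposed mice for Per1, Per2, Per3, Cry2, Nr1d1 and Nr1d2 and the highest for Bmal1, Npas2 and Cry1. It was in the middle for Clock. Over all genes tested it was lowest for 39.1% and highest for 40.5%. It was also the ethanol-exposed mouse nearest to the control mean for 7 of the 10 members, against 39.5% of all genes tested. Nr1d1 was an exception, with its most distant value in that mouse.

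On the FPKM scale, which corrects for transcript length and so allows genes to be compared within a library, the order of the members differed between the groups. In control mice Nr1d1 had the highest mean level at 11.5 ± 0.579 FPKM (SD, n = 3), followed by Cry1 at 6.24 ± 0.0701 FPKM. Per1 was ninth at 1.22 ± 0.267 FPKM, above only Per3 at 0.163 ± 0.0365 FPKM. Between these lay Bmal1, Nr1d2, Clock, Cry2, Npas2 and Per2 at 4.26 to 2.84 FPKM, where Bmal1 overlapped Nr1d2 and each gene from Clock to Per2 overlapped the next.

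In ethanol-exposed mice Per1 had the highest mean level at 11.1 ± 4.12 FPKM (SD, n = 3) and Cry2 the next at 9.35 ± 4.85 FPKM. Nr1d1 was at 3.49 ± 1.49 FPKM and Bmal1 at 1.45 ± 0.363 FPKM. Npas2 was at 0.280 ± 0.419 FPKM, next to Per3 at 0.235 ± 0.138 FPKM. The ranges of all neighbours in this order overlapped except those of Bmal1 and Npas2. The activators thus stood at the lower end of the order in ethanol-exposed mice and in its middle in control mice.

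Ratios of 2 members within a library do not depend on the scaling between libraries, and all 45 were computed from FPKM. The groups did not overlap for 33 ratios and overlapped for 12. Of all pairs of tested genes with reads in every library, 55.7% did not overlap. The 45 ratios share their genes and are not independent. In an exact two-sided permutation test, 3 mice against 3 cannot go below p = 0.1, and the smallest value after Benjamini-Hochberg adjustment over the 45 ratios was 0.136, so no ratio could pass the test.

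The ratios of activators to repressors were counted by family, and no test compared the families. Of all pairs of tested genes with reads in every library, 55.7% did not overlap, in either direction. Of the 9 ratios of a positive limb gene over a Per gene, 7 were lower in all 3 ethanol-exposed mice and 2 overlapped. Over a Cry gene, 4 of 6 were lower and 2 overlapped. Over a REV-ERB gene, 3 of 6 were lower, 1 was higher and 2 overlapped. The ratio of Bmal1 to Per1 was 0.114, 0.0766 and 0.281 in ethanol-exposed and 3.0, 3.59 and 4.10 in control mice. Bmal1 stood at 3 times Per1 or more in every control mouse and below it in every ethanol-exposed mouse, a 26.2-fold difference of the mean log2 ratio. For Bmal1 over Cry2 the ratios were 0.147, 0.0778 and 0.430 against 1.38, 1.13 and 1.35. Here too the order of the genes was turned in every ethanol-exposed mouse.

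Bmal1 over Nr1d1, an activator over its own repressor, was 0.349, 0.240 and 1.02 in ethanol-exposed and 0.422, 0.336 and 0.362 in control mice. These values overlapped (exact permutation p = 0.9). Both genes were lower in ethanol-exposed mice, but their ratio varied among these mice. Ethanol replicate 3 stood above all control mice, ethanol replicate 2 below them and ethanol replicate 1 within their range. Clock over Nr1d1 was the ratio that was higher, at 0.382, 0.435 and 0.929 against 0.341, 0.277 and 0.305. Bmal1 over Cry1 overlapped as well (exact permutation p = 0.5). Within the positive limb, Clock over Npas2 was 31.1, 82.8 and 2.15 against 1.11, 1.10 and 1.48, so Clock and Npas2 were near equal in control mice and far apart in ethanol replicates 1 and 2.

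Members of one family did not keep their ratios alike. Per2 over Per3 was 17.1, 17.8 and 20.7 in ethanol-exposed and 19.7, 17 and 16.2 in control mice. These ranges overlapped, with a difference of 0.07 on the log2 scale, although both genes varied widely among the ethanol-exposed mice. Per1 over Per2 was 2.69, 2.30 and 3.87 against 0.625, 0.386 and 0.322. Cry1 over Cry2 was 0.175, 0.180 and 0.783 against 1.86, 1.78 and 2.01. Nr1d1 over Nr1d2 was 1.35, 1.19 and 0.829 against 2.51, 2.98 and 2.64. In each of these 3 families a pair of paralogs was separated between the groups without overlap.

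Among the ethanol-exposed mice, Per1 over Nr1d1 had the smallest SD of the 45 ratios (0.13 on the log2 scale) and Cry2 over Nr1d1 one of 0.22, while Cry1 over Nr1d1 had one of 1.14 and overlapped between the groups. Per1 over Nr1d1 was 3.07, 3.14 and 3.62 in ethanol-exposed and 0.141, 0.0936 and 0.0882 in control mice, a 31.1-fold difference. Cry2 over Nr1d1 was 2.38, 3.09 and 2.36 against 0.307, 0.297 and 0.268, an 8.93-fold difference. Ethanol replicate 3 stood beside the other ethanol-exposed mice in both ratios, although Per1, Cry2 and Nr1d1 were each lowest in that mouse. The plot of ratios shows these pairs with the others.

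Each limb was also summarised by the geometric mean FPKM of its genes, as a description without a test. The log2 ratio of the positive limb (Bmal1, Clock and Npas2) to the PER and CRY limb was -2.66, -3.45 and -0.32 in ethanol-exposed and 1.29, 1.05 and 0.99 in control mice. All ethanol-exposed mice were below the control mice, with a difference of -3.25, or -2.06 without Npas2. With 1 library left out this 9.51-fold difference became 17.9-fold without ethanol replicate 3 and 6.05-fold without ethanol replicate 2. The log2 ratio of the positive to the REV-ERB limb was -2.87, -3.49 and -0.57 against -0.84, -1.02 and -1.12. These overlapped, and the difference of -1.31 became -0.12 without Npas2. It was -2.18 without ethanol replicate 3, with the groups then apart, and -0.73 without ethanol replicate 2. The log2 ratio of the REV-ERB to the PER and CRY limb was 0.21, 0.04 and 0.25 against 2.13, 2.06 and 2.11, a 3.82-fold difference between groups whose own mice lay close together.

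Around the core loop, 28 further clock genes were listed and 27 were found in the table and tested. The exception was Rorb. Of the 27, 12 were upregulated and 2 downregulated DEGs, beside 10.4% and 13.8% of all genes tested, and 13 were not DEGs. Their median log2 fold change was 0.41, against -0.04 for all genes tested.

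All 3 further repressors that act at E-boxes were upregulated. Ciart, which represses the CLOCK and BMAL1 pair, was at 28.9, 27.8 and 23.8 CPM in ethanol-exposed and 0.266, 0.0525 and 0.474 CPM in control mice, where it had 4 to 39 counts. It was the furthest apart of the 27 genes in log2 fold change, at 6.64. Its size rests on these few control reads, at 7.32 without control replicate 3 and 6.18 without control replicate 2. Bhlhe41, a basic helix-loop-helix repressor, was at 7.77, 11.6 and 1.92 CPM against 0.330, 0.407 and 0.461 CPM, and its paralog Bhlhe40 was at 327.5, 478.5 and 147.2 CPM against 45.6, 85.9 and 79.2 CPM. In both, ethanol replicate 3 was the lowest ethanol-exposed mouse and still above all control mice. Bhlhe41 was no DEG with limma on log2(FPKM + 1) (0.70).

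Of the genes whose products bind D-boxes, such as those in the Per1 and Per3 windows, 3 of 4 were upregulated. Dbp, a direct E-box target and activator at D-boxes, was at 11.6, 6.36 and 3.88 CPM in ethanol-exposed and 0.341, 0.249 and 0.206 CPM in control mice. Tef, another activator, was at 49.4, 51.6 and 55.5 CPM against 22.0, 19.6 and 21.0 CPM, and Nfil3, the repressor at the same sites, was at 367.5, 344.4 and 164.9 CPM against 57.4, 63.5 and 58.6 CPM. Dbp, Tef and Nfil3 were each higher in every ethanol-exposed mouse. Their log2 fold changes were 4.76 for Dbp, 1.32 for Tef and 2.29 for Nfil3, while Hlf, the remaining activator, had -0.18 (adjusted p = 0.269, edgeR), or -0.85 with library size alone (adjusted p = 0.00148). Tef was no DEG with library size alone (0.65) or with limma on either FPKM scale (0.52 and 0.64), where it still passed on p, and Dbp and Nfil3 stayed DEGs under every alternative run.

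Rora, a ROR receptor gene whose product activates at the elements that REV-ERB represses, was at 100.5, 132.6 and 59.1 CPM in ethanol-exposed and 49.6, 45.5 and 47.1 CPM in control mice. The groups did not overlap. Its log2 fold change was just past the threshold on size, at 1.04, and the call was lost with library size alone (0.39), with limma on FPKM (0.25 and 0.29), with upper quartile scaling (0.95), with the replicate block (0.96) and with any single library other than ethanol replicate 3 left out.

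Among kinases of the clock, Csnk1e, which phosphorylates PER, was upregulated (log2 fold change 1.45), and Prkaa1, a catalytic subunit gene of AMPK, which marks CRY for decay, was downregulated (-1.31). The call of Csnk1e was lost with library size alone (0.80, adjusted p = 0.0896), with limma on either FPKM scale (0.40 and 0.63) and without control replicate 1 (adjusted p = 0.0545), while Prkaa1 stayed a DEG under every alternative run. Csnk1d, Csnk2b and Gsk3b passed the test on p with rises of 0.41, 0.28 and 0.77, of which that of Csnk2b was closest to the threshold (adjusted p = 0.0448). Csnk2b did not pass with upper quartile scaling, no filter, DESeq2, the replicate block or the length trend removed (adjusted p = 0.0516 to 0.163). Nor did it pass with any single library other than ethanol replicate 3 left out. Csnk1d did not pass with the replicate block (0.0524) or without control replicate 2 (0.0543) or 3 (0.0733). With library size alone and with limma on FPKM, Csnk1d and Csnk2b had the opposite sign, and Csnk2b then passed on p as lower (-0.38, adjusted p = 0.0166, and -0.37 and -0.39). Gsk3b was at 0.11 (adjusted p = 0.485) with library size alone and at 0.08 and 0.10 with limma on either FPKM scale, where it did not pass. Csnk2a1 and Prkaa2, the paralog of Prkaa1, did not pass, and Prkaa2 was at 0.07 (adjusted p = 0.764, edgeR), or at -0.59 with library size alone (adjusted p = 0.0345). Csnk2a1 was at 0.21 (adjusted p = 0.144, edgeR). It passed on p as lower with library size alone (-0.46, adjusted p = 0.00753) and with limma on either FPKM scale (-0.41 and -0.46). With the length trend removed Csnk2a1 passed as higher (0.39, adjusted p = 0.0187). Among genes of protein turnover, Fbxl21, a CRY ubiquitin ligase gene, fell by 2.12 and Usp2, a deubiquitinase gene with a strong liver rhythm, rose by 3.40 on the log2 scale. Fbxl21 was no DEG with limma on log2(FPKM + 1) (-0.75), and Usp2 stayed a DEG under every alternative run. Btrc, a PER ubiquitin ligase gene, fell by 0.74 and passed on p alone, while Fbxw11 did not pass (0.40, adjusted p = 0.0734, edgeR). Fbxw11 passed as higher with the length trend removed (0.57, adjusted p = 0.0311) and without ethanol replicate 3 (0.56, adjusted p = 0.00139). With library size alone (-0.26) and with limma on either FPKM scale it had the opposite sign and did not pass. Btrc did not pass without ethanol replicate 2, without any 1 control replicate or with the length trend removed, and was a downregulated DEG with library size alone (-1.41), with limma on log2(FPKM + 0.1) (-1.19) and without ethanol replicate 1 (-1.004).

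Nampt, the rate-limiting enzyme of NAD+ salvage and an E-box target, was at 95.5, 113.0 and 57.4 CPM in ethanol-exposed and 26.4, 25.4 and 25.8 CPM in control mice. It rose by 1.78 on the log2 scale, with no overlap between the groups, and was no DEG with limma on log2(FPKM + 1) (0.94). Ncor1, Hdac3 and Sirt1, corepressor and deacetylase genes, did not pass the test. With library size alone they passed on p as lower, at -0.86, -0.40 and -0.99 (adjusted p = 0.00164, 0.0204 and 0.00177, edgeR). They also passed as lower with limma on either FPKM scale. Hdac3 was at 0.27 with TMM and passed as higher with the length trend removed (0.42, adjusted p = 0.0243, edgeR). Noct, a rhythmic phosphatase gene, was upregulated (1.09), a call lost with most alternatives, among them library size alone (0.44) and any single library other than ethanol replicate 3 left out, and Timeless fell by 0.97 without reaching the threshold on size, and did not pass on p without any 1 control replicate. Timeless was a downregulated DEG with library size alone (-1.64), upper quartile scaling (-1.07) and limma on log2(FPKM + 0.1) (-1.33), and without ethanol replicate 2 (-1.02) or 3 (-1.13).

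**Figure D3:**
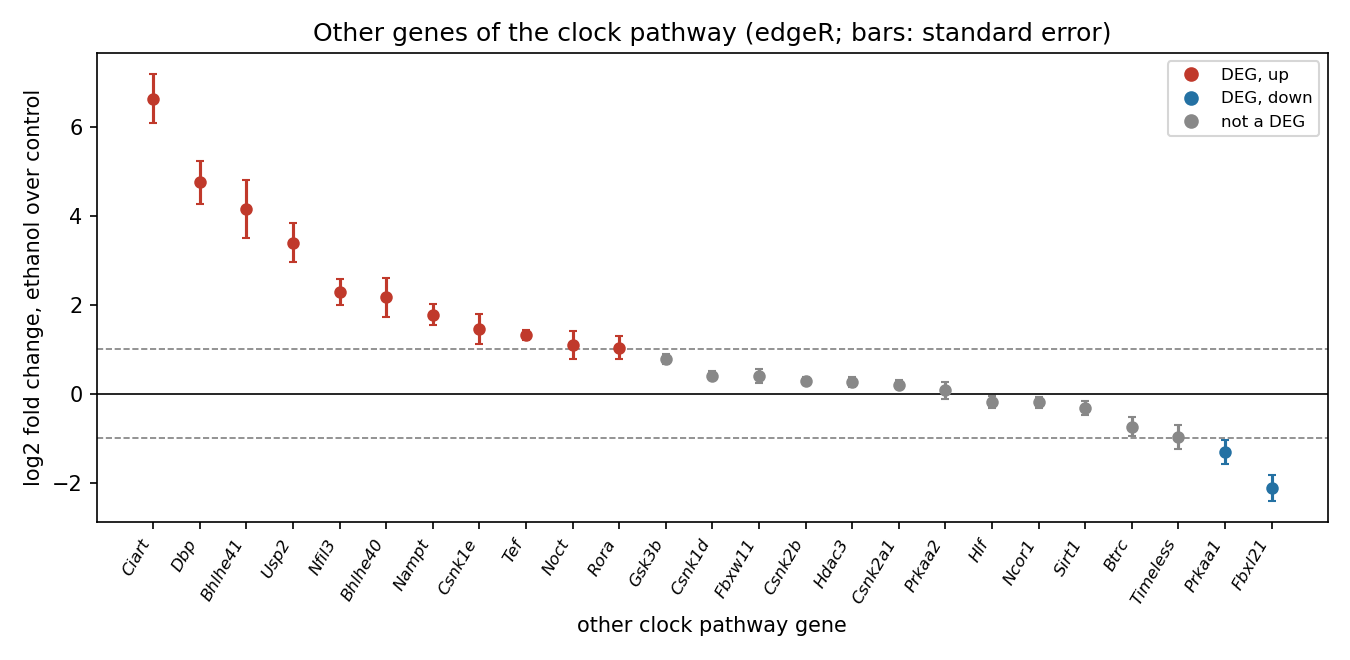
Log2 fold change of the further clock genes reported by name, ethanol-exposed against control mice, with standard errors (edgeR), in order of size and coloured by DEG call, with dashed lines at 1 and -1. Ciart (6.64), Dbp (4.76) and Bhlhe41 (4.15) lead, the genes in grey are not DEGs, and Prkaa1 (-1.31) and Fbxl21 (-2.12) are the 2 downregulated genes.

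For 1 gene of each limb, the 3 genes with the most similar levels over the 6 libraries were found by the distance between their centred log2 CPM values, among 11318 genes. For Bmal1 they were Ppcs (distance 0.0998), Wdr81 (0.115) and Akap10 (0.203). For Per1 they were Got1 (0.314), Tcim (0.516) and Itpkc (0.528). For Nr1d1 they were Pced1a (0.135), Slc22a30 (0.154) and D3Ertd751e (0.215). None of these 9 genes is on the clock lists.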

How the data were processed

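Liver RNA (TRIzol) from 3 acute ethanol-exposed and 3 control mice was sequenced in paired reads. The authors deposited whole-number counts per Ensembl gene, not normalized, and FPKM values scaled to transcript length and library size. The labels name build GRCm38 (mm10), but the table's coordinates mostly differ from a GRCm38 annotation and are printed as deposited. The aligner, counter and strand setting are not given in the sources used here. The table held 1 count column that matches no sample, which was not used.

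Genes passing filterByExpr were TMM-scaled and compared by edgeR 4.0.16 (R 4.3.3) without covariates. The DEG thresholds were 0.05 on the adjusted p and 1 on the log2 fold change. Ratios used deposited FPKM. Chi-square over its degrees of freedom was 49.6 to 496 between libraries of a group, beyond counting noise. Labels do not say how replicates were bred or housed, so p-values measure the spread between these 3 mice per group. Counting error was small for all members but Npas2 in ethanol-exposed mice (9 to 279 counts) and Per3 in both groups (60 to 261 counts). Promoter windows were matched by Ensembl identifier and symbol. The test was checked on simulated counts. Alternatives were other scalings, no filter, DESeq2 1.42.0, limma 3.58.1 on log2(FPKM + 1) or log2(FPKM + 0.1), a replicate block, the adjusted p alone, other limb summaries and each library left out; removal of the trend with transcript length was chosen after seeing the data. Named genes were the 10 members, a list of 28 further clock genes (some are counted but not reported here by name) and the 3 genes most like Bmal1, Per1 and Nr1d1. Members and lists were chosen with earlier results of these data known.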

Additional observations from a re-analysis of the deposited data

How the results depend on the processing

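Of the log2 fold changes of the members under the alternatives, 125 kept their direction and side of the threshold, 16 came to meet that setting's threshold for a call (2 of them, Bmal1 and Clock, with the adjusted p alone and no larger change), 16 ceased to meet it and 3 changed sign. The last were all of Nr1d2, at -0.49 with library size alone, -0.41 with limma on log2(FPKM + 1) and -0.51 with limma on log2(FPKM + 0.1). The 1 downregulated member became 5 with library size alone, 4 with limma on either FPKM scale, 3 with the adjusted p alone and 0 with the trend with transcript length removed (chosen after seeing the data). It ranged from 0 to 2 with each library left out, 2 without ethanol replicate 3 and 0 without any 1 control replicate, and upregulated members ranged from 2 to 4. Of the further clock genes, 12 were upregulated, against 7 with library size alone, 5 with limma on log2(FPKM + 1) and 7 with limma on log2(FPKM + 0.1), and 2 were downregulated, against 4, 1 and 4, and 4 with the adjusted p alone. Non-overlapping ratios numbered 33 to 41 with each library left out, the most without ethanol replicate 3. Without Npas2 the positive limb differed by -2.06 from the PER and CRY limb and by -0.12 from the REV-ERB limb. With summed FPKM these differences were -2.54 and -0.29, against -3.25 and -1.31 with geometric means. Summed FPKM gave -2.25 for the REV-ERB over the PER and CRY limb, against -1.93 with geometric means. The cause of these changes was not tested.

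No sign was seen that replicate numbers paired the mice. Same-numbered mice of both groups had deviations from their group means that correlated at -0.03, -0.02 and -0.02. With the replicate number as a block, 2 members were downregulated, since Npas2 was at -4.05 (adjusted p = 0.0497, edgeR), and Per2 lost its call (adjusted p = 0.0997). With 3 mice per group and a median standard error of 0.26, the calls of Nr1d1, Per2, Rora and Noct, with changes near the threshold of 1, depended on single libraries. Without any 1 control replicate these calls were lost while the changes stayed beyond 1.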
